A study of Mus musculus with 30 samples.

Results

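The sites described here are places in the genome of mouse embryonic stem cells, away from gene starts, where CTCF was bound together with cohesin and where its peak was gone after CTCF had been degraded. They were selected on the deposited peak lists of CTCF and SMC1A. A site qualified when its CTCF peak at 0 h overlapped no CTCF peak at 12 h, when its summit lay more than 1 kb from every annotated start site, and when the summit with 100 bp to either side overlapped a 0 h SMC1A peak. Of the 29934 CTCF peaks at 0 h, 10535 (35.2%) met these criteria on chromosomes 1 to 19 and X. They made up 43.6% of the 24186 lost distal sites, and the other 13651 lost distal sites had no SMC1A peak. A further 3513 lost sites lay within 1 kb of a start site, 2227 sites kept a CTCF peak at 12 h, and 8 peaks lay on chromosome Y.

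All libraries came from E14 mouse embryonic stem cells in which CTCF carries an auxin-inducible degron (CTCF AID), and this degron is shared by every group, including the controls at 0 h. The treated cells received the auxin indole-3-acetic acid (IAA) for 12 h, and the 0 h cells received none. CTCF and its cohesin partner SMC1A were precipitated from cells of the genotype CTCF AID, with 1 library per time. CHD4, CHD8, SMARCA4 and SMARCA5 were precipitated through a biotin tag from CTCF AID cells that also carry biotin-CHD4, biotin-CHD8, biotin-SMARCA4 or biotin-SMARCA5, with 2 libraries per remodeler and time and 16 in all. The 10 input samples of the series were not analysed here. Whether the 2 libraries of a group came from separate cultures is not given in the labels, so their spread may be technical. The lists carry no read counts and no expression values, so the sequencing depth is unknown and the cell type could not be checked against marker genes.

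CTCF is a zinc-finger protein that recognises a long, directional DNA motif and blocks cohesin, the ring-shaped complex that extrudes chromatin loops. Loops are typically held between pairs of CTCF motifs that point toward each other. CHD4 is the ATPase of the NuRD complex and CHD8 a CHD-family ATPase known to bind CTCF. SMARCA4 (BRG1) drives the SWI/SNF (BAF) complexes, which evict or slide nucleosomes, and SMARCA5 (SNF2H) drives the ISWI complexes, which space them and are known to be needed for CTCF binding.

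The label as CTCF sites was checked against the sequence under the summits. A motif model with the consensus NGCCACNAGGGGGCGCNNNNNNNC was built only on the 2227 sites that kept a peak, and its score threshold was passed by 5% of windows shifted by 100 kb. It matched on either strand at 10323 of the 10535 sites (98.0%, exact 95% interval 97.7% to 98.2%), against 89.8% (89.3% to 90.3%) of lost distal sites without cohesin. At a threshold passed by 1% of shifted windows the share was 86.4%. The motif lay on the plus strand in 50.0% of the matches. The sequences printed next carry the results described below. The motif match is in capitals with 20 flanking bases on each side, and each sequence reads along the motif strand, so that its right end is the 3′ side. The first 3 are the sites with the highest SMC1A −log10 q, the next 3 had all 8 remodeler libraries at 0 h and the fewest at 12 h, the next pair had all 16 libraries, and the Akap7 site gained remodelers. The Gm10203 and Tfcp2l1 sites hold the core that recurs most often, and the last pair lies nearest to Nanog and Esrrb. Each is named by its nearest start site.
Eif4b (chr15:102065792-102065855, minus strand): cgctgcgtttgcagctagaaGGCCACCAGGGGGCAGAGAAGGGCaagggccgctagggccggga
Hif1an (chr19:44582858-44582921, plus strand): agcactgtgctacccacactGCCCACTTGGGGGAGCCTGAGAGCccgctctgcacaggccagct
Atp23 (chr10:126919275-126919338, plus strand): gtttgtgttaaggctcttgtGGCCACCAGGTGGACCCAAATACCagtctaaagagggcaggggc
Gm12989 (chr4:135709445-135709508, minus strand): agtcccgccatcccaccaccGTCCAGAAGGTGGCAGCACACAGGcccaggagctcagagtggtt
Tent5a (chr9:85328540-85328603, minus strand): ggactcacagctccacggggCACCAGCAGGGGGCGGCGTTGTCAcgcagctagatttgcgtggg
Gbx1 (chr5:24530172-24530235, minus strand): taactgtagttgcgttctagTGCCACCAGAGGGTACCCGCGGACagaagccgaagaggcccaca
Ifi30 (chr8:70769526-70769589, minus strand): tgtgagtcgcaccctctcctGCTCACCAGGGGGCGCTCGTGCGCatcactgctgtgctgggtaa
Nxph3 (chr11:95520895-95520958, minus strand): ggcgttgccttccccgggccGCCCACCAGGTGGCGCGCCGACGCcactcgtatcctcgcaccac
Akap7 (chr10:25219317-25219380, minus strand): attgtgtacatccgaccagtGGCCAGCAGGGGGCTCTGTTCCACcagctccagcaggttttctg
Gm10203 (chr6:149126795-149126858, plus strand): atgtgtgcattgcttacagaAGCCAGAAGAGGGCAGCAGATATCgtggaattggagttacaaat
Tfcp2l1 (chr1:118564734-118564797, plus strand): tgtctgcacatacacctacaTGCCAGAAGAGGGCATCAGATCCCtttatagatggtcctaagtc
Nanog (chr6:122720130-122720193, minus strand): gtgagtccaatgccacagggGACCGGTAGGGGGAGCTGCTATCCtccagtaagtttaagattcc
Esrrb (chr12:86433429-86433492, minus strand): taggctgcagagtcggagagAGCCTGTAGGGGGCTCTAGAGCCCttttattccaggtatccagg

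The CTCF and SMC1A values chose the sites and are given as a description only. The authors' fold enrichment of CTCF at 0 h, the pileup of a peak over its local background, had a median of 15.4 and ran from 2.91 to 84.8. It had a median of 9.20 at lost distal sites without cohesin and of 27.7 at sites that kept a peak. The SMC1A fold enrichment had a median of 5.86 and ran from 2.54 to 25.8. The share of lost distal sites that had an SMC1A peak went from 9.57% in the weakest of 10 classes of CTCF strength to 77.0% in the strongest. Across the 10535 sites the −log10 q of CTCF and of SMC1A had a Spearman correlation of 0.39, in 1 library each and at the same places. The sites took up 10470 of the 16724 SMC1A peaks of 0 h (62.6%), and 65 of these peaks covered more than 1 site. The 12 h lists were short, with 10 SMC1A peaks and 2248 CTCF peaks, and 0 of the 10535 sites overlapped a 12 h SMC1A peak.

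SMC1A summits were shifted slightly to the 5′ side relative to CTCF summits. The spreads overlapped, and both medians lay within the 24 bp motif. Measured along the motif from its centre, the CTCF summit had a median position of 3 bp toward the 3′ side, with quartiles at −6 and 11 bp. The SMC1A summit had a median of −8 bp, on the 5′ side, with quartiles at −28 and 15 bp. The SMC1A summit lay 3′ of the centre at 41.8% of sites (40.8% to 42.7%), and the CTCF summit at 60.4% (59.4% to 61.3%). With the motif on the plus strand the SMC1A share was 39.1% and with the motif on the minus strand 44.4%, so the 5′ side held more on both strands. These are positions in 1 library per protein, and the intervals cover counting error only.

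The sites were spread over the genome, with 845 on chromosome 2, the most, and 119 on X, the fewest. By GENCODE M21, 50.1% of the summits were intergenic, 44.9% intronic, 2.63% in other exonic sequence and 2.38% in untranslated regions. Among lost distal sites without cohesin, 41.4% were intergenic and 51.8% intronic. The median distance to a start site was 13426 bp, and 11.8% of sites lay more than 50 kb away. Just over the limit of 1 kb stood sites at Erh (1001 bp) and Mir1668 (1003 bp). Just under it, and so not counted, stood sites at Socs1 and Fam19a5 (998 bp each).

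Neighbouring sites pointed toward or away from each other depending on how far apart they lay. A pair was called convergent when the left motif was on the plus strand and the right one on the minus strand, divergent in the opposite case, and tandem when both had the same strand. Of 625 neighbouring pairs under 5 kb apart, 9.92% (exact 95% interval 7.69% to 12.5%) were convergent and 28.6% (25.1% to 32.4%) divergent. At 5 to 50 kb the shares were 18.7% (17.3% to 20.2%) and 34.1% (32.3% to 35.9%). At 50 to 200 kb the order turned, with 30.0% (28.5% to 31.5%) convergent and 24.0% (22.6% to 25.4%) divergent. Beyond 200 kb they were 31.4% (29.8% to 33.1%) and 21.1% (19.7% to 22.6%). Over all 10303 pairs the convergent share was 26.2% and the divergent share 26.1%, which must be nearly equal along a chromosome.

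**Figure D1:**
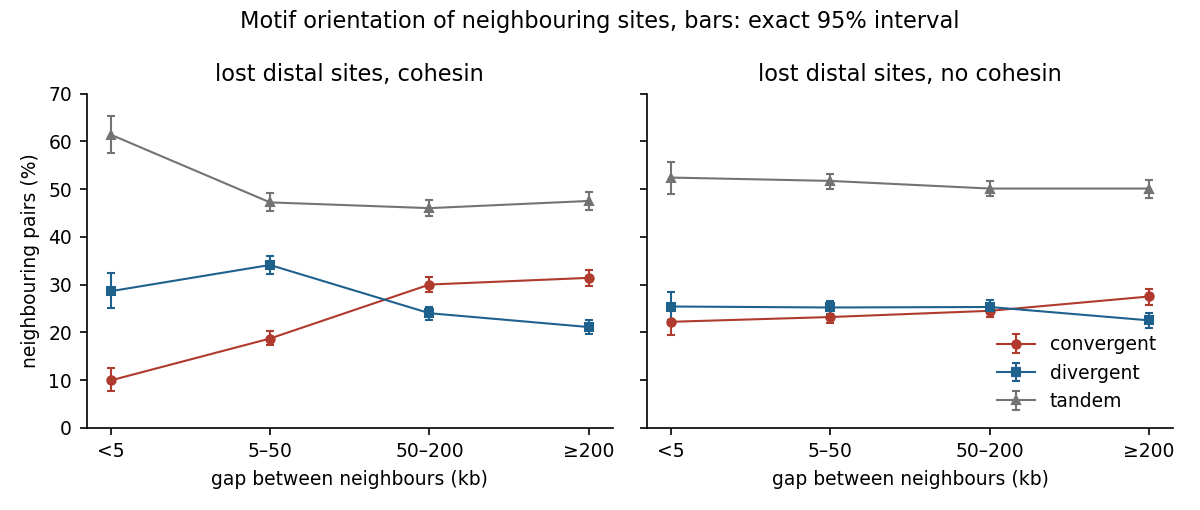
Share of neighbouring pairs (y axis, %) whose CTCF motifs are convergent, divergent or tandem, by the gap between the sites (x axis, kb), for lost distal sites with cohesin (left) and without (right); bars are exact 95% intervals. With cohesin the convergent share goes from 9.92% under 5 kb to 31.4% at 200 kb and more, and without cohesin from 22.2% to 27.5%.

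Lost distal sites without cohesin, taken among themselves, had a flatter profile. Their convergent share was 22.2% (19.5% to 25.1%) under 5 kb and 23.2% (21.9% to 24.5%) at 5 to 50 kb. It was 24.5% (23.2% to 25.9%) at 50 to 200 kb and 27.5% (25.8% to 29.1%) beyond. The intervals of the 2 kinds of site did not overlap at any gap. The convergent share was lower with cohesin under 50 kb and higher with it at wider gaps. Tandem pairs were the largest class at every gap in both kinds. Under 5 kb they made up 61.4% with cohesin and 52.4% without, and at wider gaps 46.0% to 47.5% and 50.1% to 51.7%. Pairs share sites with the next pair, and no further test of these differences was made.

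The remodeler lists were not used to choose the sites and were compared between times. At 0 h CHD4 had a peak at 40.4% and 27.5% of the sites in its 2 libraries, and at 12 h at 15.0% and 8.46%. The 0 h mean was 33.9% ± 9.14 (SD, n = 2). The 12 h mean was 11.8% ± 4.66 (SD, n = 2), which is 2.89-fold lower, and the libraries of the 2 times did not overlap. CHD8 was found at 21.4% and 16.3% at 0 h and at 8.83% and 6.36% at 12 h. Its means of 18.8% ± 3.56 (SD, n = 2) and 7.59% ± 1.75 (SD, n = 2) differed 2.48-fold, again without overlap. SMARCA5 was found at 11.6% and 17.3% at 0 h and at 9.33% and 6.60% at 12 h, with means of 14.5% ± 4.07 (SD, n = 2) and 7.96% ± 1.93 (SD, n = 2). SMARCA4 was the exception: its 0 h libraries stood at 28.1% and 17.6% and its 12 h libraries at 15.5% and 18.9%, so the times overlapped.

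**Figure D2:**
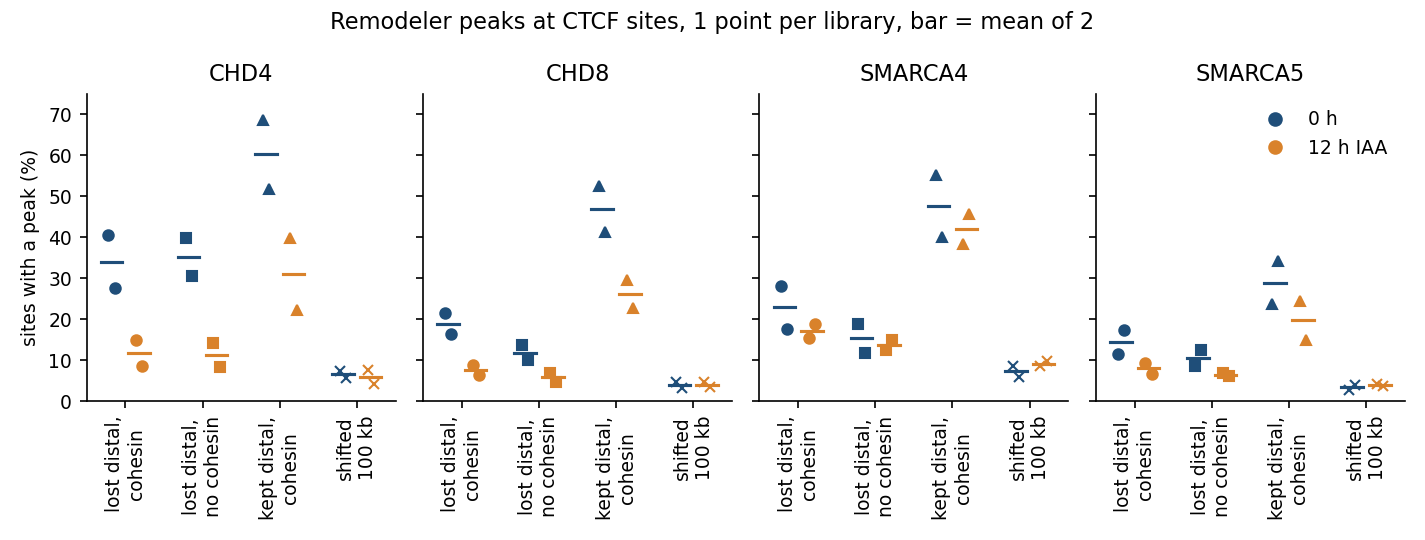
Percentage of sites with a remodeler peak (y axis) in each library, at lost distal CTCF sites with cohesin, lost distal sites without cohesin, distal cohesin sites that kept a CTCF peak, and the first group shifted by 100 kb; points are libraries, bars the mean of 2, blue 0 h and orange 12 h of IAA. At the lost sites with cohesin both 12 h points lie below both 0 h points for CHD4, CHD8 and SMARCA5, and those of SMARCA4 overlap.

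At the same sites shifted by 100 kb, occupancy was 2.74% to 9.68% over the 16 libraries. Averaged over the remodelers, occupancy fell by 11.4 percentage points, against a pooled replicate SD of 5.03. The two-sided exact permutation test over libraries gave p = 0.00309 (adjusted p = 0.00926 over 6 tests). This fall comes from the same libraries as the fall over all CTCF sites and is not independent of it. At the sites with cohesin CHD4 changed by −22.2 points, CHD8 by −11.2, SMARCA4 by −5.64 and SMARCA5 by −6.50. At lost distal sites without cohesin the changes were −23.9, −5.96, −1.75 and −4.07 in the same order. A fall is thus not particular to sites with cohesin. The SMARCA4 change of −5.64 points was −0.403 without replicate 1 of 0 h and −10.9 without replicate 2. The SMARCA5 change of −6.50 points was −3.63 without replicate 2 of 0 h. The sizes also depend on how a peak is counted. With remodeler peaks of −log10 q of at least 5 CHD4 changed by −15.0 points and CHD8 by −6.58 (−11.2 with all peaks), while SMARCA5 changed by −1.94 and SMARCA4 by −3.17. With a remodeler summit required inside the site CHD4 changed by −13.9 and CHD8 by −8.10, while SMARCA5 changed by −0.522 and SMARCA4 by −0.375. That setting leaves out most SMARCA4 and SMARCA5 summits near the motif at 0 h. Of those within 250 bp of its centre, 67.0% to 79.3% per library lay more than 100 bp away. With a site of 250 bp to either side of the CTCF summit, CHD4 changed by −23.6 and CHD8 by −10.8. SMARCA4 then changed by −5.55 and SMARCA5 by −9.80.

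A longer or shorter list can raise or lower occupancy everywhere, so the sites were also set against distal regions bound by other remodelers and away from CTCF. Such a region had a peak in 6 or more of the 12 libraries of the remaining 3 remodelers. Libraries of both times counted, and not all 3 remodelers had to be present. It kept a distance of over 1 kb to start sites and to the CTCF peaks of untreated cells. Relative to them, as a log2 odds ratio, CHD4 stood at −1.70 ± 0.18 (SD, n = 2) before and −3.59 ± 0.63 (SD, n = 2) after IAA. CHD8 moved from −0.67 ± 0.14 (SD, n = 2) down to −2.49 ± 0.10 (SD, n = 2). SMARCA4 started lowest, at −3.57 ± 0.02 (SD, n = 2), and reached −4.80 ± 0.06 (SD, n = 2). For SMARCA5 the values were −1.13 ± 0.08 (SD, n = 2) before and −2.42 ± 0.05 (SD, n = 2) after. In all 4 remodelers, SMARCA4 included, both 12 h libraries stood below both 0 h libraries. The mean change was −1.55 against a pooled replicate SD of 0.24, and the exact permutation p of 0.00154 (adjusted p = 0.00926) is the smallest that 1296 relabellings can give. With summits inside the site the relative change was −0.21 in SMARCA4 and −0.53 in SMARCA5, against −2.11 in CHD4 and −2.47 in CHD8. With a site of 250 bp to either side it was −1.25 in SMARCA4 and −1.47 in SMARCA5, against −1.80 in CHD4 and −1.67 in CHD8. Within 1 remodeler, 2 libraries against 2 allow no exact p below 0.333. The regions themselves had a SMARCA4 peak in 77.0% of cases at 0 h and 85.2% at 12 h, and both 12 h libraries stood above both 0 h libraries there.

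The remodeler peaks found at the sites at 12 h ranked higher within their lists. For CHD8 the median percentile by −log10 p was 45.6 ± 3.04 (SD, n = 2) before and 55.5 ± 3.27 (SD, n = 2) after IAA. The SMARCA4 medians were 54.5 ± 0.0375 (SD, n = 2) before and 67.0 ± 1.27 (SD, n = 2) after. SMARCA5 moved little, from 55.3 ± 1.79 (SD, n = 2) up to 58.3 ± 1.03 (SD, n = 2). The CHD4 libraries overlapped, with means of 63.4 and 63.8. The mean difference of 6.44 had an exact permutation p of 0.0139 (adjusted p = 0.0208). When a remodeler summit had to lie inside the site, the difference was 2.13 (exact permutation p = 0.323). With all lists cut to equal lengths it was 8.14 (exact permutation p = 0.0602). These are ranks in separate lists, which show no change of signal, and weak and strong peaks were not followed individually.

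Single sites were called lost for a remodeler when both 0 h libraries and neither 12 h library had a peak, and gained in the reverse case. CHD4 was lost at 1189 sites (11.3%), against a background of 12.0% over all CTCF sites, and gained at 11 (0.104%), against 0.130%. CHD8 was lost at 575 sites (5.46%), with a background of 4.52%, and gained at 18 (0.171%), with 0.200%. SMARCA4 was lost at 274 (2.60%), with a background of 2.21%, and gained at 86 (0.816%), with 1.02%. SMARCA5 was lost at 259 (2.46%), with a background of 2.38%, and gained at 51 (0.484%), with 0.658%. These shares lay near those of all CTCF sites and are no result about cohesin sites. Of the sites with CHD4 in both 0 h libraries 47.9% were called lost, of those with CHD8 41.8%, with SMARCA5 34.4% and with SMARCA4 16.8%. At lost distal sites without cohesin these shares stood in the same order, at 52.4%, 35.1%, 33.4% and 14.7%. SMARCA4 was still in both 12 h libraries at 66.4% of the sites that had it in both 0 h libraries, and CHD4 at 28.5%. The counts depend on the peak threshold: with −log10 q of at least 5 the lost counts were 612, 309, 151 and 86 in the order CHD4, CHD8, SMARCA4 and SMARCA5. The background over all CTCF sites is not given at that threshold.

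Most sites held no remodeler that both libraries agreed on. At 0 h 7165 sites (68.0%) had no remodeler in both of its libraries, 1712 had 1, 759 had 2, 587 had 3 and 312 (2.96%) had all 4. At 12 h the site counts were 8886 (84.3%), 783, 397, 276 and 193. CHD4 by itself was the most frequent state other than none at 0 h, at 1100 sites (10.4%), and 140 sites were in that state at 12 h. At 12 h SMARCA4 by itself was the most frequent, with 556 sites (5.28%), against 324 (3.08%) at 0 h. Lost distal sites without cohesin had similar shares, with no remodeler at 69.1% at 0 h and 86.8% at 12 h and SMARCA4 by itself at 2.04% and 3.96%. A peak of no remodeler in any of the 16 libraries was listed at 4478 sites (42.5%), against 46.8% of lost distal sites without cohesin. All 16 libraries had a peak at 122 sites (1.16%).

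Sites with cohesin were then compared with lost distal sites without it, since cohesin marks the sites that can anchor loops and the title of the study sets loop-dependent effects of CTCF apart. At 0 h the log2 odds ratio of being occupied, with against without cohesin, was 0.79 and 0.81 in the CHD8 libraries, 0.75 and 0.67 in SMARCA4, 0.46 and 0.57 in SMARCA5, and 0.04 and −0.22 in CHD4. At 12 h it was 0.38 and 0.45 in CHD8, 0.37 and 0.43 in SMARCA4, 0.47 and 0.15 in SMARCA5, and 0.10 and 0.03 in CHD4. The mean over the 8 libraries of a time was 0.48 at 0 h (exact sign-flip permutation p = 0.0234, adjusted p = 0.0281) and 0.30 at 12 h (exact permutation p = 0.00781, adjusted p = 0.0156, the smallest unadjusted value possible). The sign-flip test takes the 8 libraries as separate units, although each remodeler has 2 and all were read at the same sites. Its p-values may therefore be too small. The change of −0.19 had an exact permutation p of 0.0401 (adjusted p = 0.0401).

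Sites with cohesin also had stronger CTCF peaks, so the comparison was repeated among sites of similar CTCF strength. Compared within the 10 classes of CTCF strength, the mean ratio at 0 h was 0.01 (exact permutation p = 0.961) and at 12 h 0.13 (exact permutation p = 0.0625). The change turned to +0.13 (exact permutation p = 0.120). Among CTCF peaks in the upper 50% by −log10 q the change was +0.08 (exact permutation p = 0.347). The remodelers parted in this comparison. Within the strength classes both CHD4 libraries of 0 h were lower at sites with cohesin, by −0.40 and −0.62. Both SMARCA4 libraries of 0 h were higher there, by 0.32 and 0.35. CTCF strength can still differ inside a class. CHD8 stood at 0.14 and 0.15 and SMARCA5 at 0.08 and 0.03. CHD4 by itself was likewise the state of 16.1% of sites without cohesin at 0 h, against the 10.4% with it. At 12 h the CHD4 values were −0.09 and −0.08. The difference between remodelers was not tested.

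**Figure D3:**
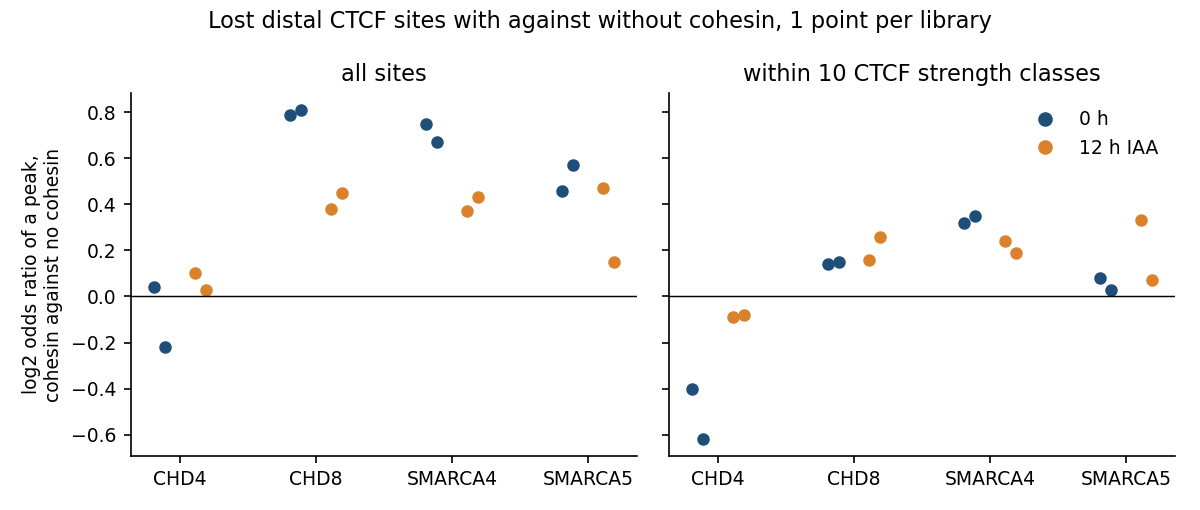
Log2 odds ratio of a remodeler peak at lost distal CTCF sites with against without cohesin (y axis) in each of the 16 libraries, over all such sites (left) and within 10 classes of CTCF strength (right); blue points are 0 h and orange points 12 h of IAA. Within classes the CHD4 points of 0 h lie at −0.40 and −0.62, and the CHD8 points of 0 h, at 0.79 and 0.81 over all sites, lie at 0.14 and 0.15.

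CHD4 and CHD8 peaks were also fewer at 12 h at distal sites that had cohesin at 0 h and kept a CTCF peak. There were 1416 such sites, and 5 of them (0.353%) overlapped a 12 h SMC1A peak. At these 1416 sites CHD4 was found at 60.2% ± 11.9 (SD, n = 2) before and 31.0% ± 12.4 (SD, n = 2) after IAA, without overlap of the libraries. CHD8 was found at 46.9% ± 7.89 (SD, n = 2) before and 26.1% ± 4.89 (SD, n = 2) after, again without overlap. The SMARCA4 libraries overlapped, with 47.6% ± 10.8 (SD, n = 2) before and 41.9% ± 5.29 (SD, n = 2) after, and so did those of SMARCA5, with 28.9% ± 7.49 (SD, n = 2) before and 19.7% ± 6.74 (SD, n = 2) after. Against them, the log2 odds ratio of the sites that lost CTCF went from −1.59 to −1.76 in CHD4, from −1.94 to −2.11 in CHD8, from −1.64 to −1.80 in SMARCA4 and from −1.27 to −1.49 in SMARCA5. The mean change was −0.18 against a replicate SD of 0.13 (exact permutation p = 0.00463, not among the 6 adjusted tests, in a comparison chosen after the data were seen). It was −0.04 (exact permutation p = 0.616) with remodeler peaks of −log10 q of at least 5. The sites that kept CTCF also had stronger CTCF peaks at 0 h, with a median −log10 q of 102 against 45.4. This comparison was not repeated within classes of CTCF strength, so the part of CTCF strength in it was not tested.

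Where the remodelers sat relative to the motif differed between them. At 0 h, SMARCA4 and SMARCA5 summits gathered on the 3′ side of the motif, away from its centre, while CHD8 summits sat on the motif. The fullest 20 bp bin was centred 190 bp and 130 bp 3′ of the motif centre in the SMARCA4 libraries and 190 bp in both SMARCA5 libraries. In both CHD8 libraries it was centred at 10 bp, and in the CHD4 libraries at 10 and −10 bp. Of the summits within 250 bp of the motif centre, 75.5% and 65.8% lay on the 3′ side in SMARCA4 and 67.6% and 70.9% in SMARCA5. The shares were 63.1% and 57.1% in CHD4 and 55.5% and 52.3% in CHD8.

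**Figure D4:**
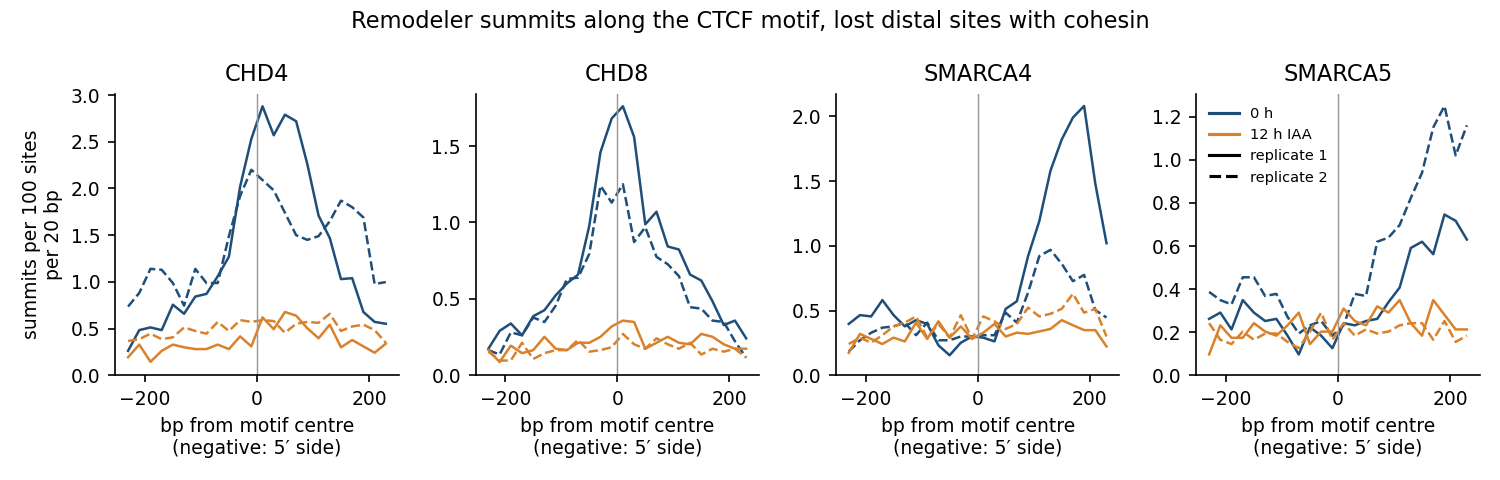
Remodeler summits per 100 lost distal cohesin sites in 20 bp bins (y axis, scaled per panel) by distance from the centre of the CTCF motif along its strand (x axis, bp, negative on the 5′ side); blue is 0 h, orange 12 h of IAA, solid lines replicate 1, dashed lines replicate 2. At 0 h SMARCA4 and SMARCA5 are highest 130 to 190 bp on the 3′ side and CHD8 is highest at the motif, and at 12 h the fullest bin of each library is lower than in either 0 h library of its remodeler.

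In SMARCA4 and SMARCA5 at 0 h the 3′ side held more summits for motifs on either genomic strand. In replicate 1 of SMARCA4 at 0 h the 3′ share was 74.6% for motifs on the plus strand and 76.4% for those on the minus strand, and in replicate 2 of SMARCA5 70.8% and 71.1%. CHD4 replicate 2 differed: its 0 h share was 49.3% for motifs on the plus strand and 65.6% for those on the minus strand, so the 57.1% over both rests on 1 genomic strand. At 12 h the 3′ shares were 52.6% and 57.1% in SMARCA4 and 57.9% and 53.2% in SMARCA5, below both 0 h libraries in each case. In CHD8 they were 55.0% and 54.8%, and in CHD4 61.2% and 52.4%, overlapping with 0 h. An even spread would put 50% on each side. These changes were chosen for description after the data were seen and were not tested. Lost distal sites without cohesin showed the same side at 0 h, with 69.3% and 61.2% in SMARCA4 and 64.3% and 66.4% in SMARCA5, so the asymmetry is not particular to cohesin sites. Without cohesin the SMARCA4 shares were down to 52.1% and 53.8% after IAA, and the SMARCA5 shares to 55.8% and 57.1%. Distal cohesin sites that kept CTCF differed by remodeler. SMARCA4 had 3′ shares of 76.9% and 63.8% there before IAA, then 62.0% and 67.8%, so the times overlapped. The SMARCA5 shares there fell from 67.8% and 66.8% to 56.3% and 56.4%, without overlap. A lower SMARCA5 share at 12 h was therefore not confined to sites that lost their CTCF peak.

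Among the recurring sequences 1 core stood out by frequency. The 11 bases CCAGAAGAGGG, motif positions 3 to 13, were the motif core of 1785 sites (17.3% of those with a match), and the next core, CCAGCAGAGGG, of 495 (4.80%). The first core was in soft-masked sequence, the part of the reference marked as repeats, in 99.4% of cases, against 11.4% for all other cores. Either strand of the 121 bases around the summit held it at 17.0% of the sites, at 17.4% of lost distal sites without cohesin, at 6.29% of lost promoter sites and at 5.39% of sites that kept CTCF. In the same windows shifted by 100 kb the share was 0.676% and 0.571%. Rodent B2 repeats, short interspersed elements that spread by copying, are known to carry CTCF motifs, but repeat families were not annotated here.

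CHD4 and the other remodelers ordered these sites differently. At sites with the frequent core CHD4 had a peak at 47.7% and 30.2% at 0 h, against 38.8% and 26.6% at other cores, and at 12 h at 10.9% and 6.55%, against 15.7% and 8.67%. Of the 483 sites with the core and CHD4 in both 0 h libraries 62.1% were called lost, against 44.9% of 1925 with other cores. CHD8 was lower at the core, with 11.7% and 9.08% against 23.2% and 17.7% at 0 h. SMARCA4 was also lower, with 20.3% and 11.6% against 29.7% and 18.8%. SMARCA5 stood at 10.5% and 14.7% against 11.6% and 17.8%. At 0 h CHD4 replicate 1 exceeded replicate 2 by more than the core changed either of them, and each library showed the core higher at 0 h and lower at 12 h. The median CTCF −log10 q was 37.5 at the core and 48.1 at the others. The part of CTCF strength in these differences was not tested.

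**Figure D5:**
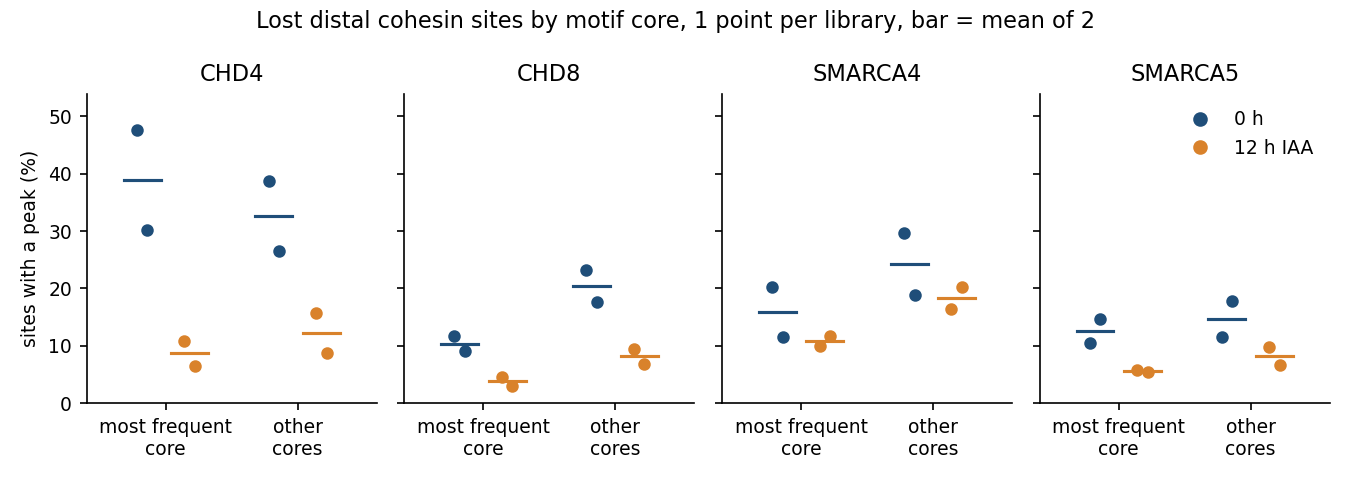
Percentage of lost distal cohesin sites with a remodeler peak (y axis) for sites whose motif has the most frequent core and for sites with any other core, in each library; points are libraries, bars the mean of 2, blue 0 h and orange 12 h of IAA. CHD4 is the remodeler with the higher 0 h values at the frequent core (47.7% and 30.2% against 38.8% and 26.6%), and CHD8 and SMARCA4 are lower there.

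Occupancy also varied with CTCF strength and gene distance. Split into 4 equal groups by CTCF −log10 q, the sites of the strongest group had the most remodelers: CHD4 went from 48.1% to 16.2% (means of 2 libraries), CHD8 from 32.5% to 10.8%, SMARCA4 from 32.0% to 23.1% and SMARCA5 from 21.1% to 10.1%. In the weakest group the 0 h means were 24.3%, 10.5%, 16.5% and 9.81% in the same order. Split into 4 groups by SMC1A −log10 q, CHD4 differed less, with 0 h means of 35.6%, 32.0%, 31.7% and 36.4% from the weakest group to the strongest. Between 1 and 5 kb from a start site the CHD8 mean was 30.6% at 0 h and 13.1% at 12 h, and beyond 50 kb it was 6.80% and 2.17%. SMARCA4 went from 32.7% to 25.5% near start sites and from 12.2% to 8.74% beyond 50 kb. The 212 sites without a motif match had weaker CTCF, with a median −log10 q of 21.7, and SMARCA4 means of 25.5% at 0 h and 26.4% at 12 h.

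At the sites with the most cohesin the remodelers were present in part. The intergenic site at chr15:102065544-102066147, 7916 bp from the start site of Eif4b, a translation initiation factor, had the highest SMC1A −log10 q (124, fold enrichment 25.8). It had a peak in 6 of 8 remodeler libraries at 0 h and in 4 of 8 at 12 h. The site at chr19:44582480-44583182 near Hif1an, which encodes a hydroxylase that inhibits HIF, had an SMC1A fold enrichment of 24.7 and went from 5 libraries to 0. The site at chr10:126919014-126919555 near Atp23 had one of 23.1 and went from 4 libraries to 1.

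The strongest CTCF peaks of the group differed in their remodelers. The site at chr11:103102537-103103170 lay in an untranslated region of Acbd4, had a CTCF fold enrichment of 84.8 and was in 6 libraries at each time. The site at chr8:70769109-70769898, in an intron of Pik3r2 and 2873 bp from the start site of Ifi30, had a CTCF fold enrichment of 65.3 and was in all 16 libraries. The site at chr5:24529857-24530677, intergenic and 3035 bp from Gbx1, a homeobox gene, had one of 68.3 and went from 8 libraries to 1, a SMARCA4 library. Going from all 8 libraries to none was seen at 2 sites, at chr4:135708692-135709920 near Gm12989 and at chr9:85327917-85328769, 1216 bp from the start site of Tent5a. Besides the Ifi30 site, the sites at Klf1 (chr8:84902769-84903494, exonic) and Nxph3 (chr11:95520648-95521218, intergenic) had the strongest CTCF among those in all 16 libraries.

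The lost and gained sites with the highest-ranked remodeler peaks were these. CHD4 had a mean percentile of 99.9 at 0 h at the intergenic site chr11:99039651-99040512, 1345 bp from Igfbp4, which binds insulin-like growth factors, and no remodeler was listed there at 12 h. The lost CHD8 peaks lay in an intron of Pigv (chr4:133671048-133671576, percentile 99.1), where both SMARCA4 libraries kept a peak. The lost SMARCA4 peaks lay near Gm10203 (chr6:149126632-149127053, percentile 91.1), at a site with the frequent core, and the lost SMARCA5 peaks near Gm34961 (chr13:59840402-59841256, percentile 99.1). The site in an intron of Akap7, which encodes a kinase-anchoring protein (chr10:25219137-25219628), ranked first among gained sites for CHD4, CHD8 and SMARCA4. It had only SMARCA5 at 0 h, in both libraries, and 7 of 8 libraries at 12 h. For SMARCA5 the first gained site was intergenic and 1253 bp from Plxdc1 (chr11:97987499-97987864), where the other remodelers were in both libraries at both times.

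Around pluripotency genes the number of sites within 100 kb of the start site differed. Nanog had 8, Esrrb 7, Pou5f1 and Prdm14 5 each, Klf4 and Sall4 4 each, Tbx3 3 and Tfcp2l1 2, while Sox2 and Myc had 0. The site nearest to Nanog lay 12586 bp away (chr6:122719908-122720580, CTCF fold enrichment 14.2) and went from 4 libraries to 3. The site nearest to Esrrb lay in its intron (chr12:86433257-86433675) and went from 6 to 3, with CHD4 in both libraries at 0 h and in none at 12 h. The site nearest to Pou5f1 lay in exonic sequence 3478 bp from its start (chr17:35509294-35509907), and CHD4 likewise went from 2 libraries to 0 while CHD8 and SMARCA4 stayed in both. The sites nearest to Klf4 (chr4:55531267-55531515) and Tbx3 (chr5:119680773-119681005) had weak CTCF peaks, with fold enrichments of 4.95 and 3.30, no motif match, and all 8 libraries at 0 h. At 12 h they were in 6 and 8 libraries. The site nearest to Sall4 (chr2:168738834-168739461), in an intron of Atp9a, went from 4 libraries to 0.

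Of the 10 distinct sites nearest to 12 loci known for insulation or distant enhancers, 4 had no remodeler peak in any library, close to the 42.5% of all sites. Igf2, an imprinted growth factor gene, had 4 sites within 100 kb and H19 had 1. The nearest to both (chr7:142672121-142672624) had an SMC1A fold enrichment of 8.41 and no remodeler peak in any library. Xist, Tsix, Sox9, Epha4, Hbb-bs and Kcnq1ot1 had 0 sites within 100 kb. Shh and Hba-a1 had 2 each and Hoxa9 and Hoxd13 1 each. The site nearest to Hoxa9 (chr6:52211403-52211996) had a CTCF fold enrichment of 53.8 and an SMC1A fold enrichment of 11.8, and went from 5 libraries to 4. The sites nearest to Hoxd13 (5 libraries at 0 h and 4 at 12 h), Hba-a1 (3 and 1), Sox9 (7 and 5) and Kcnq1ot1 (5 and 3) also held remodelers, those of Sox9 and Kcnq1ot1 more than 100 kb away. The site nearest to Shh, 2737 bp away (chr5:28469590-28470166), had only CHD4 at 0 h, in both libraries, and none at 12 h.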

How the data were processed

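Chromatin immunoprecipitation with sequencing gave 1 deposited narrowPeak list for each of 20 samples, so replicates were not pooled. The submitters' processing notes name Trim Galore, Bowtie2, MACS2, deepTools and the builds mm10 and hg38, with no versions, roles or order. Column 7 of the deposited lists was read as the authors' fold enrichment, a ratio, and columns 8 and 9 as the −log10 p and −log10 q of the authors' peak caller. Column 10 was read as the summit offset. Apart from the CTCF and SMC1A correlation, they describe or rank peaks of a single list. All peaks lay within GRCm38, whose sequence and GENCODE M21 basic annotation were used. A deeper library can give a longer list, and a site without a peak may hold signal under the threshold.

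Occupancy is the percentage of sites (summit with 100 bp to either side) overlapped by a remodeler peak by at least 1 bp. In odds ratios 0.5 was added to each cell. Libraries were the units. The 0 h and 12 h labels were exchanged in every way within each remodeler, and Benjamini-Hochberg adjustment covered 6 tests. Intervals are Clopper-Pearson at 95% and cover counting error only. Sites were named by rule: extremes of CTCF, SMC1A and remodeler ranks, and the nearest to listed loci. The site group, the lists and the tests were chosen with earlier results of these data known. Simulated occupancy was used to check the calculations only. It had independent sites and a depth shift shared by all sites of a library, which real lists need not follow. Python 3.11.15, numpy 2.4.6, pandas 2.3.3, scipy 1.17.1 and matplotlib 3.10.9 were used. Alternatives are given in the closing section.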

Additional observations from a re-analysis of the deposited data

Results flagged for a closer look

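At the lost distal cohesin sites remodeler summits within 250 bp of the motif centre were split at 100 bp, and the share in the outer part was higher at 12 h in CHD8 and lower in SMARCA4 and SMARCA5. In CHD8 it was 34.3% and 34.2% at 0 h and 52.4% and 52.8% at 12 h, a difference of 18.3 percentage points. In SMARCA4 it was 79.3% and 67.0% at 0 h and 58.1% and 61.1% at 12 h, a difference of −13.5 points. In SMARCA5 it was 75.3% and 75.4% at 0 h and 57.3% and 59.5% at 12 h, a difference of −17.0 points. Between CHD8 and SMARCA4 these differences lay 31.9 points apart, and between CHD8 and SMARCA5 35.3 points, and neither gap was tested. An even spread over the window would put 3 of 5 summits in the outer part. The CHD4 shares overlapped between the times. Outer CHD8 summits numbered 629 and 486 at 0 h and 286 and 232 at 12 h. Inner ones numbered 1203 and 935, then 260 and 207. Outer summits went from 1552 and 789 to 479 and 627 in SMARCA4, and from 683 and 1073 to 347 and 301 in SMARCA5. Their inner counts overlapped between the times. A higher share therefore does not show that summits moved outward. Lost distal sites without cohesin had shares of 40.7% and 41.1% at 0 h and 52.5% and 55.4% at 12 h in CHD8, 72.4% and 64.3% against 55.8% and 57.9% in SMARCA4, and 70.9% and 68.6% against 54.8% and 58.2% in SMARCA5. At distal cohesin sites that kept CTCF the CHD8 share was at most 29.9% in both 0 h libraries, and 44.4% and 42.0% at 12 h.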

How the results depend on the processing

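The occupancy change of −11.4 points and the relative change of −1.55 kept their direction in every alternative run, but occupancy changed by −6.68 points with −log10 q of at least 5 and by −5.71 with summits inside the site. They missed the threshold only within the second of 2 styles of peak names, where no exact p below 0.500 is possible. In that style the values were −5.06 and −1.26, 0.62 and 0.42 for the cohesin contrast at 0 h and 12 h, −0.20 for its change and 9.19 for the rank change. In the first style the contrasts were 0.44 and 0.29 (exact permutation p = 0.0938 and 0.0625), the contrast change −0.23 and the rank change 4.99. Leaving out single libraries gave −13.0 to −9.78 points for occupancy, −1.66 to −1.44 for relative occupancy, 0.44 to 0.58 and 0.27 to 0.33 for the contrasts, 5.50 to 7.38 for the rank and −0.22 to −0.14 for the change against sites that kept CTCF. For the contrast change it gave −0.23 to −0.15, and 9 of 16 omissions lost the call.

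The contrast change was −0.14 with −log10 q of at least 5, −0.17 with equal list lengths, −0.09 with summits, −0.14 with motif matches only, +0.08 in the upper 50% of CTCF sites and +0.13 within strength classes. The contrast at 0 h was 0.33 with summits, 0.14 in the upper 50% and 0.01 within classes, and at 12 h 0.19 with SMC1A −log10 q of at least 5 and 0.13 within classes. The rank change was 5.61, 8.14 and 2.13 with −log10 q of at least 5, equal lengths and summits. The change against sites that kept CTCF was −0.04 with −log10 q of at least 5. The cause of these differences was not tested.

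With the replicate number as a block the contrast change stayed at −0.19 with an exact permutation p of 0.0938, and the block changed no other call. Correlations of replicate differences over the sites were −0.08 to 0.06. They cannot show whether libraries of the same number share a culture or batch, which the labels do not give. Without both CHD4 libraries numbered 2, whose peaks are narrow (median 119 and 94 bp), an alternative chosen after seeing the data, no call changed.

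Lost sites numbered 612 (CHD4), 309 (CHD8), 151 (SMARCA4) and 86 (SMARCA5) with −log10 q of at least 5, and 599, 338, 44 and 27 with a summit inside the site. Gained sites were 6 and 28 in CHD4 under these settings, 57 in SMARCA4 with summits and 23 in SMARCA5 with −log10 q of at least 5. The share over all CTCF sites is not given under these settings, so the counts are no result about cohesin sites. A summit inside the site also leaves out most SMARCA4 and SMARCA5 summits near the motif at 0 h. The motif share was 86.4% at the stricter threshold. The lists give no depth, so a lost peak is no measure of how much binding was lost.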
